A study of Mus musculus with 3 samples.

Results

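Sox7, Sox17 and Sox18 make up the SoxF subgroup of the SOX transcription factors. Their probes were found by gene name among the non-control probes of the array, which gave 4 probes for the 3 genes out of 55681 probes carrying 36095 names. Sox17 had 2 probes and the others 1 each, and each probe was spotted once per array. The yolk sacs came from mouse embryos, and cells were sorted for VE-cadherin, a junction protein of endothelium, together with CD45, a surface protein of blood cells. The study had 1 control sample, taken at E10.5, and 2 samples labelled Tie-2-Etv2, in which an Etv2 transgene is turned on by a Tie-2 Cre transgene. The strain of every sample was mixed, B6/CBA and others, and the cells were sorted with no later treatment. The embryonic day of the Tie-2-Etv2 embryos, the genotype of the control beyond that word, and whether the Tie-2-Etv2 samples were separate litters are not given in the sources used here, so any p-value reflects the spread of these samples alone, and that spread may be technical. Tie-2 (Tek) is active in endothelium and in part of its blood cell descendants, which sets the cells that Cre reaches.

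SoxF factors bind DNA through a high-mobility-group box and act in endothelial cells, where they take part in arterial and lymphatic specification and in the formation of vascular junctions. Sox17 also marks definitive and visceral endoderm and supports fetal blood stem cells, Sox7 is active in early blood and endothelial precursors and in parietal endoderm, and Sox18 is known for the ragged mouse mutants with vascular and lymphatic defects. In embryos Sox7 and Sox17 are turned down as blood cells form from hemogenic endothelium. Etv2 is an ETS factor needed for the first endothelial and blood precursors.

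The probes are shown first because each SoxF value rests on 1 or 2 short sequences and because the 3 genes are paralogs. A stretch of 30 of the 60 bases of each probe follows, 5′ to 3′, as in the deposited array files. Capitals mark the longest run of bases that a probe shared with the probe of another SoxF gene.
Sox7 probe, bases 15 to 44: attaataatctcgTGAAAcactatcacagg
Sox17 probe at base 2576, bases 10 to 39: ttattccatttctTGAAAgtgtattgatct
Sox17 probe at base 3041, bases 8 to 37: cccacaaaatttGCCTTTAattcctacaat
Sox18 probe, bases 24 to 53: gggtatgcaacaGCCTTTAgagctggtggc
The longest such run was 5 bases for the Sox7 probe and the first Sox17 probe and 7 bases for the second Sox17 probe and the Sox18 probe. Against the 55677 probes of all other names, read on the same strand, the longest shared runs were 12, 13, 15 and 13 bases in the order shown. The GC content was 40%, 35%, 35% and 45%, where the median over all probes was 43.3%.

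On build mm9 the Sox7 probe lay on the plus strand at chr14:64569419-64569478. The Sox17 probes lay on the minus strand at chr1:4481503-4481562 and chr1:4481038-4481097, starting 465 bases apart. The Sox18 probe lay on the minus strand at chr2:181404789-181404848. The probes started at bases 3115 (Sox7), 2576 and 3041 (Sox17) and 1312 (Sox18) of their transcripts, per the array files. Whether they lie in coding sequence or a UTR was not looked up here, because no annotation of that build was used.

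The processed signal below is the scanner intensity after background subtraction, with the error that the extraction software assigned to the single spot. Levels are log2 of that signal relative to the array's 75th percentile over the probes detected on all 3 arrays. Here detected means flagged as well above background by the software. Its looser flag, of a signal positive and significant against background, was set for every SoxF spot on every array. Across the control, replicate 1 and replicate 2 the percentile was 2073, 1199 and 2092 intensity units, and 45.7%, 43.5% and 48.5% of probes were detected. The lowest detected probe stood at 13.8, 10.54 and 11.2 units. All 3 arrays lay on 1 slide and were read in 1 scan. The single control and the number of arrays limit the precision of every value.

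Sox18 was detected on both Tie-2-Etv2 arrays and not on the control. Its processed signal was 14.0 ± 3.15 (spot error) in the control and 1723 ± 172 and 778 ± 77.8 in Tie-2-Etv2 replicates 1 and 2. Both Tie-2-Etv2 spots were far above the single control spot, which was not well above background. In levels this was -7.21 for the control and -0.45 ± 1.38 (SD, n = 2) for Tie-2-Etv2. Because the control spot gives only a bound, Sox18 was at least 108-fold higher in Tie-2-Etv2 by this processing. The bounds were 213-fold on replicate 1 and 55.1-fold on replicate 2. A bound here sets the bright value against the dim spot or the lowest detected probe of that array, whichever was higher. For Sox18 it was the dim spot, at 14.0 ± 3.15 against 13.8 units. Every bound holds for this processing only. With another background correction (normexp) the log2 difference of Sox18 was 4.49 in the mean and 3.55 on replicate 2, against 6.76 and 5.78 here.

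Sox17 was also higher on both Tie-2-Etv2 arrays by either probe, with a wider gap between the replicates. The brighter probe, at base 2576, read 12.9 ± 3.53 on the control, 176 ± 17.8 on replicate 1 and 41.9 ± 4.99 on replicate 2. The control spot was not well above background and lay under both Tie-2-Etv2 spots, which differed 2.88 on the log2 scale between themselves. By this processing the probe was at least 8.14-fold higher in Tie-2-Etv2, at least 22.1-fold on replicate 1 and at least 3.01-fold on replicate 2. With normexp the log2 difference on replicate 2 was 0.45, under the log2 bound of 1.59 given here. Its group levels were -7.33 in the control and -4.20 ± 2.03 (SD, n = 2) in Tie-2-Etv2.

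The second Sox17 probe, at base 3041, read 3.02 ± 3.02 on the control, 89.4 ± 9.25 on replicate 1 and 18.2 ± 3.07 on replicate 2. The order of the arrays was that of the first probe, and the control spot again was not well above background. The bound from this probe was smaller, at least 3.83-fold in the mean, 11.2-fold on replicate 1 and 1.31-fold on replicate 2, because the value of the lowest detected probe took the place of the control's own lower value. On the first probe's replicate 1 spot the software did not find the spot and used its nominal position, whereas the second probe's spots were found on all 3 arrays.

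Sox7 was at the edge of detection. Its processed signal was 11.3 ± 3.06 in the control and 16.9 ± 2.79 and 8.72 ± 2.47 in Tie-2-Etv2 replicates 1 and 2. Only the replicate 1 spot was well above background. The control and replicate 2 spots, both not well above background, are given no order between them. On replicate 1 alone Sox7 was at least 2.12-fold higher than the control by this processing. That is a log2 bound of 1.09, against a log2 difference of 0.85 with normexp. The spot errors of the processed signals overlapped, but these signals are not scaled between arrays. The percentile was 2073 units on the control and 1199 on replicate 1, so the overlap does not compare levels. Replicate 2 gives no fold in either direction. Of all probes, 583 (1.05%) shared this pattern of detection on replicate 1 alone. On the control array the software used the nominal position of the Sox7 spot.

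**Figure D1:**
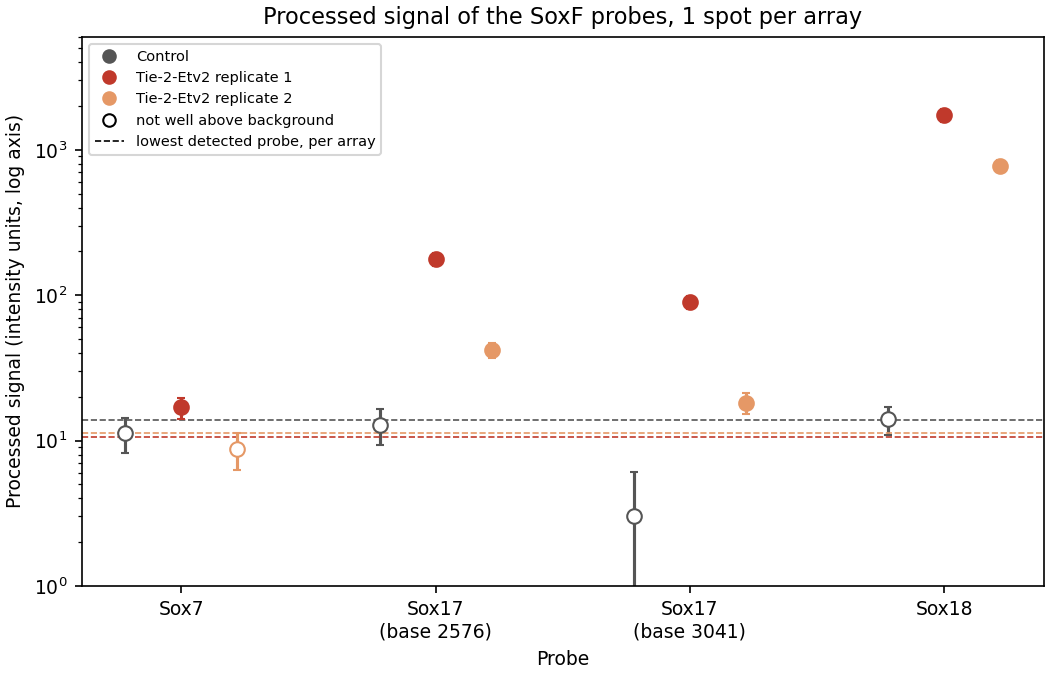
Processed signal (intensity units, log axis) of the 4 SoxF probes on the control array and both Tie-2-Etv2 arrays; points are single spots, bars the software's spot error, open points spots not well above background, and dashed lines the lowest detected probe of each array. Sox18 goes from 14.0 to 1723 and 778, both Sox17 probes keep the same order of arrays, and Sox7 stays between 8.72 and 16.9; the bar that leaves the lower edge reaches 0.

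The difference was tested with limma over 26214 probes; the only residual degree of freedom (1) is the difference between the Tie-2-Etv2 arrays. The 3 Sox17 and Sox18 probes passed the filter on dim probes only through the Tie-2-Etv2 arrays. Their control spots were not well above background. The fitted differences below therefore do not measure a size, and the bounds above are given in its place. For Sox18 the bound equals the fitted difference, because it was set against its own dim control spot. Sox18 had a fitted log2 difference of 6.76 ± 0.91 (SE), with an unadjusted p of 0.00190 and an adjusted p of 0.227 in limma. The Sox17 probes had fitted differences of 3.13 ± 1.30 and 4.13 ± 1.39, with adjusted p of 0.542 and 0.451 in limma. None passed a threshold of 0.05. Sox7 was not tested, as its probe was well above background neither on the control nor on both Tie-2-Etv2 arrays. No gene passed in this design (0 of 19580, 0.0%), while 2110 genes (10.8%) had an unadjusted p under 0.05 in limma. With 1 array against 2, no exact permutation p can be smaller than 0.333.

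Sox17 and Sox18 were both at least 2-fold higher than the control on both Tie-2-Etv2 arrays, as 767 of the 19580 genes tested were (3.92%), and 1300 genes (6.64%) were lower by that measure. Because of the way they passed the filter, nothing is read from that count. Probes detected on both Tie-2-Etv2 arrays and not on the control numbered 759 of 55668 (1.36%), and 3 of the 4 SoxF probes were among them.

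The spots and their surroundings on the slide were looked at next for Sox18. The SD of its pixels was 13.1% of the spot mean on replicate 1 and 15.1% on replicate 2. Among the 8 nearest spots, 0 were 2-fold higher on both Tie-2-Etv2 arrays around Sox18, Sox7 and the first Sox17 probe. Around the second Sox17 probe 1 was. Over all genes tested 3.92% were, so counts this low out of 8 say little about the surroundings. The median difference of the Sox18 neighbours was 0.33 on replicate 1 and -0.15 on replicate 2. Sox11, a SoxC gene, had 1 probe of 2 that was detected on replicate 1 alone, at least 15.5-fold above the control. Its other probe was detected on no array, and the spots around its probes were not looked at.

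Replicate 1 lay above replicate 2 for the SoxF probes detected on both, by 2.88 and 3.1 for Sox17 and 1.95 for Sox18 on the log2 scale. The median of the same difference over all genes tested was 0.055. Etv2, whose transgene sets the groups apart, also stood higher on replicate 1, at levels of -4.84 in the control, -0.41 on replicate 1 and -1.62 on replicate 2. Its second probe gave log2 differences of 2.66 and 1.98, against 4.42 and 3.22 for the first. The SoxF gap between the replicates had the sign of the Etv2 gap, over 2 arrays only. Of the 19580 genes tested, 10775 also stood higher on replicate 1. The part of Etv2 in the SoxF gap was not tested.

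**Figure D2:**
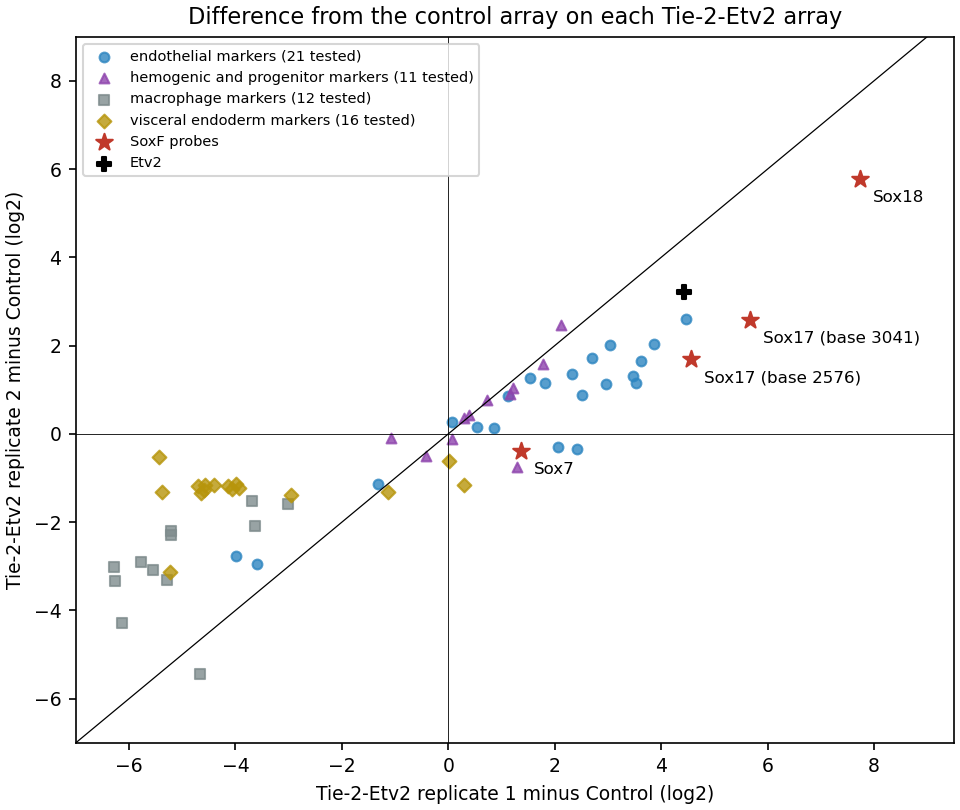
Log2 difference from the control on Tie-2-Etv2 replicate 1 (horizontal) against replicate 2 (vertical) for the SoxF probes (stars), Etv2 (cross) and 4 lists of marker genes (1 point per tested gene); the diagonal marks equal differences. The SoxF points are drawn at the plain differences from control spots not well above background. Their distance from 0 is therefore no measured size (Sox7 on replicate 2 is dim against dim). The Sox17 and Sox18 stars lie right of the diagonal, as replicate 1 was above replicate 2.

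SOX genes of the other subgroups were looked at in the same way. Of 16 genes outside SoxF, 7 were detected on no array, among them Sox2, Sox3 and Sox9, and 5 on all 3 arrays. Of all probes, 48.7% were detected on no array and 40.9% on all 3, so nothing particular to SOX genes is read from these counts. The 6 that could be tested had a median log2 difference of 0.34, where the median over all genes tested was 0.067. Of the 6, 0 were at least 2-fold higher and 0 at least 2-fold lower on both Tie-2-Etv2 arrays, against 3.92% and 6.64% of all genes tested. Sox4, a SoxC gene active in lymphoid and many embryonic cells, was the furthest up of these, at levels of -0.73, 0.77 and -0.26, a difference of 0.98 ± 0.55 (SE). Its control level lay under both Tie-2-Etv2 levels, but the gap to replicate 2 was 0.47. Sox5, a SoxD gene, read 2.83, 3.30 and 3.11 with 1 probe while its other probes were detected on no array, so its probes disagree. Sox13, Sox21 and Sox1 had differences of 0.31, 0.58 and 0.24, and Sox10 differed by -0.08 on replicate 2 and was dim on replicate 1. Whether the SoxF genes differ from these as a group was not tested.

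**Figure D3:**
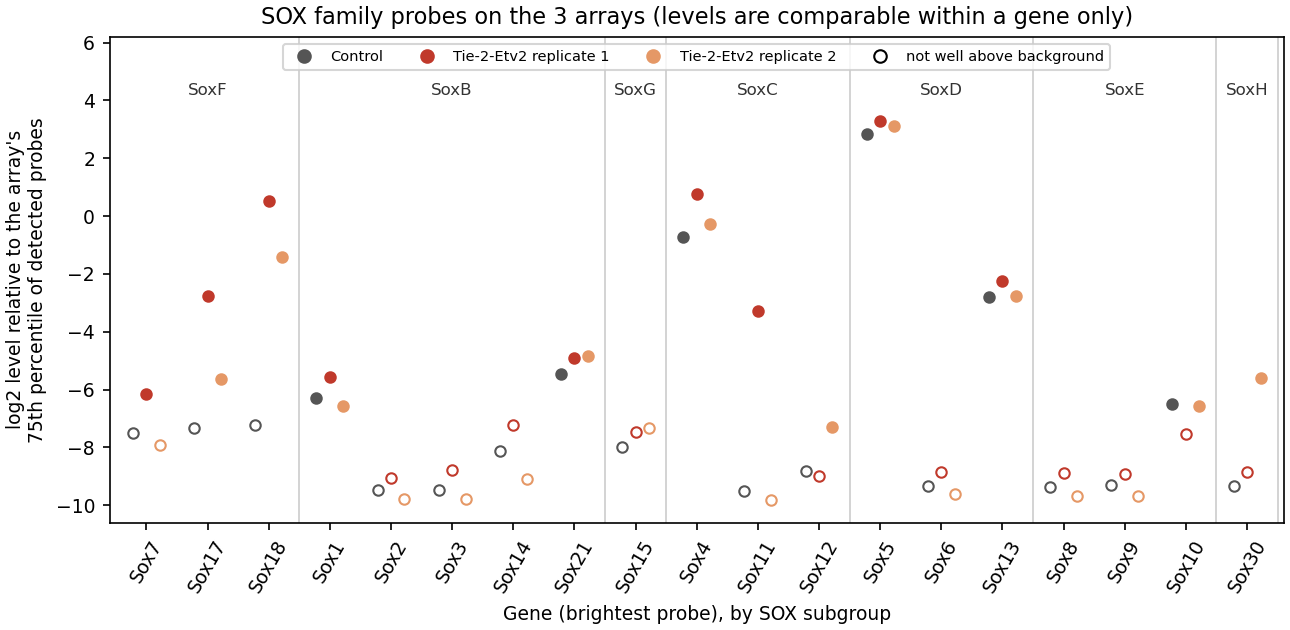
Log2 level, relative to each array's 75th percentile of detected probes, of the brightest or tested probe of each SOX gene, grouped by subgroup; filled points are well above background, open points are not, and levels are comparable within a gene only. The 3 SoxF controls are open while the Sox17 and Sox18 points of both Tie-2-Etv2 arrays are filled, and the Sox5 and Sox13 points lie close together on all 3 arrays.

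Partners and regulators of SoxF were taken from general knowledge: the ETS factors Etv2, Erg, Fli1 and Ets1, the blood and endothelial factors Gata2 and Tal1, the SOX partners Mef2c, Rbpj, Ctnnb1 and Pou5f1, and the ligands Vegfa and Vegfc. Of 11 tested, 4 were at least 2-fold higher on both Tie-2-Etv2 arrays and 0 lower, against 3.92% and 6.64% of all genes tested. Etv2, whose transgene sets the groups apart, was among those higher. The median log2 difference was 0.64, and 0 passed limma's adjusted test. Erg, an endothelial ETS factor, had levels of -4.59, -2.56 and -2.92, a difference of 1.84 ± 0.36 (SE) by the chosen probe and 1.89 by the other. Gata2, which acts in blood stem cells and endothelium, had levels of -0.84, 1.53 and 0.84 and a difference of 2.03 ± 0.44. Vegfc, the ligand of lymphatic growth that acts upstream of Sox18 in lymphatic vessels, had levels of -2.87, 0.81 and -1.10, a difference of 2.72 ± 0.89. For these 3 genes both Tie-2-Etv2 arrays lay above the control. Mef2c and Rbpj, which bind together with SoxF factors at vascular enhancers, differed by -0.36 and -0.32, and Ctnnb1 by 0.17. Fli1 and Tal1 differed by 0.70 and 0.64. Ets1 differed by -0.50 with its chosen probe and -0.72 with the other, and Vegfa by -0.97 and -0.32. Pou5f1 was detected on no array.

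Genes described as SoxF targets were divided. Of 9 tested out of 12, 3 were at least 2-fold higher on both Tie-2-Etv2 arrays and 1 lower. Over all genes tested the shares were 3.92% and 6.64%. The targets had a median log2 difference of 0.80 (1.31 on replicate 1 and 0.42 on replicate 2), and 0 passed limma's adjusted test. Cdh5, which encodes VE-cadherin, had levels of -4.08, 0.39 and -1.48, a difference of 3.53 ± 0.88 (SE). Robo4, a vascular guidance receptor with SOX sites in its promoter, had levels of -4.02, -0.55 and -2.70, a difference of 2.40 ± 0.99. Dll4, the arterial Notch ligand, had levels of -6.55, -4.44 and -5.33, a difference of 1.67 ± 0.50. On all 3 of these genes replicate 1 stood highest and the control lowest.

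Cldn5 and Vcam1, which encode a tight junction protein and an adhesion receptor, were 2.41 and 1.31 higher on replicate 1 but at -0.34 and -0.09 on replicate 2. Notch1 differed by 0.80 and Kdr, the main VEGF receptor, by 0.50 with its chosen probe and 3.38 with the other. Runx1, the blood regulator whose activity Sox7 can hold back, differed by 0.41 and was detected on all 3 arrays. Lama1, a laminin chain that SoxF factors turn on in parietal endoderm, had a difference of -1.42 on replicate 2. On replicate 1 its spot was dim, which puts it at least 9.31-fold below the control. Prox1 and Mmp7, both linked to Sox18, were detected on no array, and Fgf3 on replicate 2 alone.

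Both endothelium and endoderm express SoxF genes, and markers of the other cell types of the yolk sac are given here for that reason. Endothelial markers were higher in 11 of 21 tested genes and lower in 3 at the 2-fold measure on both arrays. Over all genes tested, 3.92% were higher and 6.64% lower. The median of the endothelial markers was 1.48 (2.33 on replicate 1 and 1.14 on replicate 2). All 21 endothelial markers were detected on the control array, where none of the SoxF probes was. Their summed signal relative to the percentile was 22.9, 78.6 and 45.1 on the control, replicate 1 and replicate 2. Egfl7 and Cd34 made up 70.9% to 78.9% of these sums, and the remaining genes summed to 6.66, 19.6 and 9.53. Of the 21 markers 17 stood higher on replicate 1 than on replicate 2, as did 10775 of all 19580 genes tested. Cdh5, given above, was among the markers with the largest differences, with Lyve1 and Stab2, receptors of lymphatic and sinusoidal endothelium. Lyve1 differed by -3.37, and Stab2 by -2.94 on replicate 2, while its dim spot on replicate 1 puts it at least 12.1-fold below the control. Tek, whose promoter drives the Cre, differed by 2.53. In sorted bulk cells, a change in the number of cells of a type cannot be told apart from a change in RNA per cell.

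Visceral endoderm markers were mostly lower in Tie-2-Etv2. Of 16 tested, 0 were at least 2-fold higher and 13 lower on both Tie-2-Etv2 arrays, against 3.92% and 6.64% of all genes tested. The median was -2.72 (-4.26 on replicate 1 and -1.21 on replicate 2), or -2.62 with dim values set to the lowest detected level. Their summed signal was 43.3, 6.95 and 18.4, of which Afp and Trf made up 59.99% to 89.7%. Dab2, an endocytic adaptor, had levels of 1.93, -3.31 and -1.2 on the control, replicate 1 and replicate 2. Foxa2, an endoderm factor, differed by -1.31 on replicate 2 and was at least 8.67-fold below the control on replicate 1, where its second probe gives at least 1.77-fold, and Ttr, which encodes transthyretin, differed by -2.99. Macrophage markers were lower in 12 of 12 tested genes, with summed signals of 74.6, 5.09 and 17.2, of which Csf1r and Cx3cr1 made up 64.0% to 85.4%. Erythroid markers were lower in 6 of 9 and mesenchyme markers in 5 of 8, and 0 of either were higher. These counts too stand against 6.64% lower and 3.92% higher over all genes tested. The part of these shifts in the SoxF values was not tested.

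Markers of hemogenic endothelium and blood progenitors span the step at which Sox7 and Sox17 are turned down. They had a median of 0.41 over 11 genes, all detected on all 3 arrays. Of these, 3 were at least 2-fold higher on both Tie-2-Etv2 arrays and 0 lower, against 3.92% and 6.64% of all genes tested. Itga2b (CD41), Gfi1b and Myb were at 2.29, 1.68 and 1.13. Ptprc, which encodes the sorted CD45, had levels of -1.08, -1.51 and -1.58, and Pecam1, an endothelial and blood cell adhesion gene, of -4.38, -2.85 and -3.11. Both genes, and Cdh5 for VE-cadherin, were detected on every array.

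The genes most like each SoxF probe were sought by the distance between their 3 levels, each centred on its own mean, among probes with the same detection calls. For the first Sox17 probe these were Nfib, Cyp26a1 and Klhl4, at distances of 0.23, 0.23 and 0.25 log2 units among 756 candidates. For the second they were a probe without a gene symbol, Cyyr1 and Ifi203, at 0.29 to 0.30. Cyp26a1 encodes a retinoic acid-degrading enzyme. For Sox18 they were D030007L05Rik, Oosp1 and Skap1, at 0.13, 0.60 and 1.0. Sox7 had 582 candidates, and the nearest, none matched to RefSeq, lay at 0.071 to 0.11. The likeness rests on 3 arrays. The control value, and for Sox7 also that of replicate 2, is not well above background. The distances therefore describe the plotted values only.

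**Figure D4:**
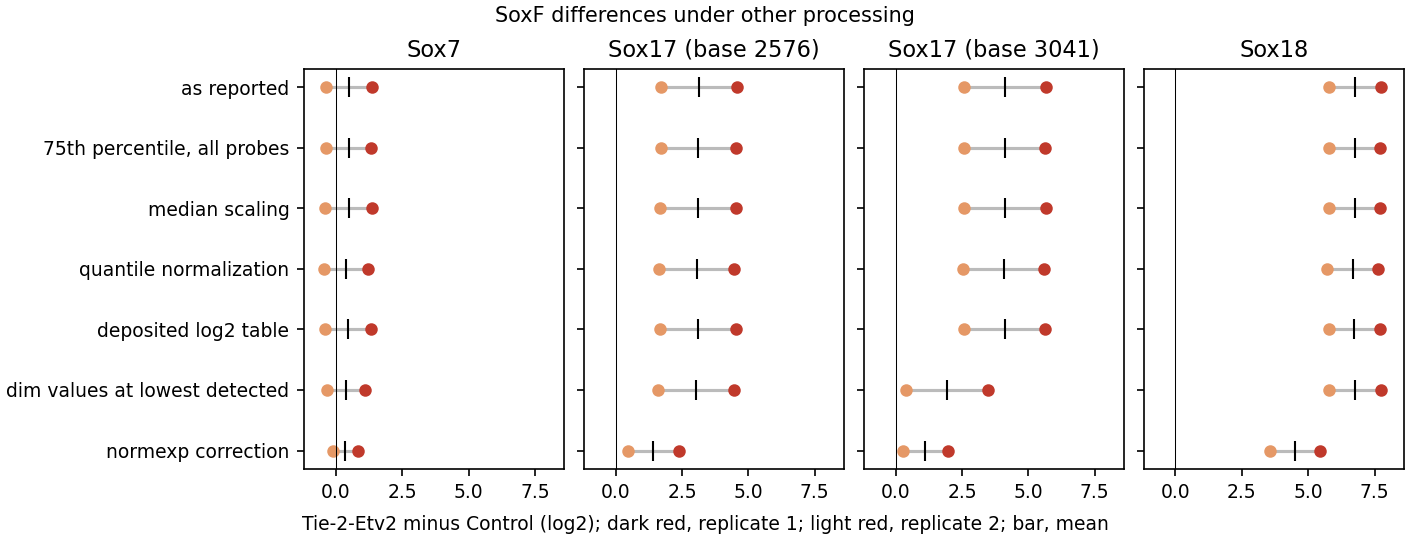
Log2 difference from the control for each SoxF probe under 7 ways of processing (rows), with replicate 1 in dark red, replicate 2 in light red and their mean as a bar. The control spots are not well above background, so positions show how the plain differences move and not a size. Sox18 is at 4.49 to 6.76 in the mean, and the Sox17 probes go down to 1.42 and 1.11 with normexp background correction.

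The direction for Sox18 and Sox17 held under the other ways of processing. Sox18 was higher under all 7 alternatives run on both Tie-2-Etv2 arrays, with mean log2 differences of 4.49 to 6.76. Its smallest single-array difference was 3.55. These alternatives are not separate checks. Leaving out the filter or raising dim values left Sox18 at 6.76, and other percentiles and the deposited values only shift whole arrays. The Sox17 probes were higher on both arrays too, with mean differences of 1.42 to 3.13 and 1.11 to 4.13, but with normexp background correction replicate 2 stood only 0.45 and 0.26 above the control. These are plain differences from control spots not well above background and show only how they move with the processing. The Sox7 spot on replicate 1 stood 0.85 to 1.38 above that of the control.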

How the data were processed

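The samples were profiled on 1-colour (Cy3) Agilent arrays of design 028005, and spots were read with Agilent Feature Extraction (10.7 per the submitters' processing notes, 10.7.3.1 per the file headers). Per the file headers, the deposited intensity values were background-subtracted, with detrending and surrogates, and not scaled between arrays. The authors also deposited log2 values of unstated scale and centring. Between arrays they followed the scanner's processed values on a log2 scale to within 0.01 for 100% of 55668 probes, once constants of 0.756 and -0.0161 were allowed for, with each row centred on its median. Outlier spots, 168 to 174 on an array, were dropped, and log2 signals were averaged per probe. The 75th percentile was taken over the 22764 probes detected on all 3 arrays, since under 50% were detected on each. Probes detected on the control or on both Tie-2-Etv2 arrays were tested with limma 3.58.1 in R 4.3.3 (lmFit, eBayes, two-sided, Benjamini-Hochberg over 26214 probes, total degrees of freedom 3.92), and the fit was tested on simulated data. A gene is represented by its brightest tested probe. Names were updated through RefSeq (GRCm38.p6, names only): 29676 of 55681 probes matched. The members, gene lists and tests were chosen with earlier results of these data known. The genes named are the members, checks of the sort, members of the lists on SoxF partners, targets and SOX relatives, up to 3 leading genes of each marker list, and the 3 nearest genes of each probe.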

Additional observations from a re-analysis of the deposited data

How the results depend on the processing

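Sox18 kept its direction under every alternative run and passed limma's adjusted test with normexp background correction (difference 4.49, adjusted p 7.78e-19) and with no filter on dim probes (6.76, adjusted p 6.95e-05); its largest adjusted p was 0.365. Its control spot is dim and it entered the test only through the Tie-2-Etv2 arrays, so these p-values add no support. The second Sox17 probe passed with no filter (adjusted p 0.0198), the first under none (0.0647 to 0.651). Without 1 Tie-2-Etv2 replicate the differences were 5.78 to 7.74 for Sox18, 1.69 to 4.57 and 2.58 to 5.68 for the Sox17 probes and -0.39 to 1.38 for Sox7, where the value without replicate 1 compares spots that are both dim and has no direction. The number of genes passing was 614 with normexp and 440 with no filter, against 0 otherwise. limma's total degrees of freedom were 26214 with normexp and 21.1 with no filter, against 3.92 in the main fit. With normexp each Sox17 and Sox18 probe had the same SE, 0.455. The part of these values in the counts was not tested. Genes 2-fold higher and lower on both arrays numbered 312 and 491 with normexp, and 1317 and 1559 with no filter. Keeping only what every array detected, which leaves out all SoxF probes, gave 502 and 593. On 1 replicate alone they numbered 895 to 1774 and 1634 to 2204. The list medians reversed under no alternative. No paired analysis was possible because the control has no replicate number in the labels. All arrays lay on 1 slide and 1 scan, so no block was fitted. Signal over background limits Sox7 and the control values of all SoxF probes.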

Other observations

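A few genes linked to SOX factors were detected on 1 array only. Sox30, a SoxH gene, was detected on replicate 2 alone, at least 3.1-fold above the control, and Fgf3 likewise at least 1.90-fold. Cd163, a macrophage gene chosen after its values were seen, was detected on replicate 1 alone, at least 12.8-fold above the control. By contrast, 12 of 12 tested macrophage markers were at least 2-fold lower on both arrays, against 6.64% of all genes tested.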
